A study of Mus musculus with 8 samples.

Results

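The GATA family of transcription factors has 6 members in the mouse, Gata1 to Gata6, and their RNA was followed in incisor dental epithelia that lack Bmi1. Every noncontrol probe whose accession mapped to one of these genes was taken, which gave 10 probes for the 6 genes, out of 17178 genes with a symbol on the array. The family was chosen with the genotype difference of Gata3 already known. The genotype values of its members are therefore given as a description, with no test.

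The groups were Bmi1-/-, homozygous for a null allele, and wild type (WT), with 4 samples each, both on a mixed genetic background. In either genotype, incisors were digested in accumax, the epithelium was pulled away from the mesenchyme mechanically, and Cy3-labelled total RNA was hybridised to 1 array per sample. The labels give neither age nor sex, nor the structure of the Bmi1 allele, and do not say whether each sample came from its own animal, so every p-value below measures only the spread between these samples. WT replicate 1 carries one number in its title and another in its array data.

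GATA factors are zinc finger proteins that bind DNA at the short sequence from which the family takes its name. Gata1, Gata2 and Gata3 are best known from blood: Gata1 in red cells, platelets, mast cells and eosinophils, Gata2 in stem and progenitor cells, mast cells and endothelium, and Gata3 in T cells and group 2 innate lymphoid cells. Gata3 also acts in epithelia, among them the hair follicle and the mammary gland. Gata4, Gata5 and Gata6 are best known from heart and from gut and other endoderm. Bmi1 is a subunit of Polycomb repressive complex 1, which keeps developmental regulators silent, and CpG-rich promoters are a common feature of genes bound by Polycomb complexes in mammals.

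For that reason the promoters of the members that the results turn on are shown with every CpG dinucleotide in capitals, 5′ to 3′, as RefSeq gives them for GRCm38.p6 in a 300-base window around the start of transcription. The Gata3 window (chr2:9878551-9878850, minus strand) held 22 CpG, and 23.1% of 32851 promoters of that length held at least as many. The first Gata2 window (chr6:88193641-88193940, plus strand) held 32 CpG (reached by 9.52% of promoters) and the second (chr6:88198414-88198713, plus strand) held 29 (reached by 12.9%). The Gata1 window (chrX:7967861-7968160, minus strand), shown for contrast, held 4, which 68.6% of promoters reached, and the median over all promoters was 7.
Gata3: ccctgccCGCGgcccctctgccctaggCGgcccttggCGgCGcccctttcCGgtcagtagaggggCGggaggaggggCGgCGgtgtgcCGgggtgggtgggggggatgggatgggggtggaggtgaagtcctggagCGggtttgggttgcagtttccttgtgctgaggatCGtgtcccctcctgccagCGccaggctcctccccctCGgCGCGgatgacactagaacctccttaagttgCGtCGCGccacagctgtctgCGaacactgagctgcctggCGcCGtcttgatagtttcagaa
Gata2, first start: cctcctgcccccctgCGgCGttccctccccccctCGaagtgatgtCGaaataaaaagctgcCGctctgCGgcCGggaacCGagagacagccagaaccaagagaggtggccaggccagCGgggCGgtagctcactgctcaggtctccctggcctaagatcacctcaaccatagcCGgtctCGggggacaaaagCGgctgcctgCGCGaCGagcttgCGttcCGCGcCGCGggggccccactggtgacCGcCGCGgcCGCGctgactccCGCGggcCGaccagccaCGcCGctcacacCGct
Gata2, second start: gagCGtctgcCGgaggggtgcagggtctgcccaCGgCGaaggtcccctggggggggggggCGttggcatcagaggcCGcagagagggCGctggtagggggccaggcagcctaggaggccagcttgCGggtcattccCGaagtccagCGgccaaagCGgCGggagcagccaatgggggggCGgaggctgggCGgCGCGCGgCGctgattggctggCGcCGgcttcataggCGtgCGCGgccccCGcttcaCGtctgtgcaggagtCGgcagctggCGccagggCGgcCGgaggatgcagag
Gata1: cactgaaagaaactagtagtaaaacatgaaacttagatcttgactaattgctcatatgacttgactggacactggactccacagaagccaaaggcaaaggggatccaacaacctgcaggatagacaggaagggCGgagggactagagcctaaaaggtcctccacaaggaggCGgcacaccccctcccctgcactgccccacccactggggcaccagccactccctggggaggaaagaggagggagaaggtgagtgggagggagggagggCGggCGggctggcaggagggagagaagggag

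The 4-letter core GATA was searched on both strands of the same windows, as GATA or TATC. It occurred once in the Gata3 window, at position 38 counted from the start, and once in the Gata1 window, at position -132. Neither Gata2 window held it. At least 1 match stood in 57.9% of all promoters, so a match of this kind is common, and it is a description of the letters only. The Gata5 window (chr2:180334630-180334929, minus strand) held 26 CpG, a number reached by 16.9% of promoters, and no GATA core. Gata4 and Gata6 are named here without a promoter sequence.

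Signals are given as log2 values after subtraction of the 75th percentile of each array, so 0 is the level below which 75% of the probes of that array lie. Between 64.2% and 68.2% of probes were well above background on Bmi1-/- arrays, against 69.6% to 74.4% on WT arrays (exact permutation p = 0.0286, two-sided, the lowest value possible with 4 arrays against 4). The lowest signal counted as well above background averaged -6.12 ± 0.34 on Bmi1-/- arrays and -6.80 ± 0.37 on WT arrays (SD, n = 4 each). The 75th percentile itself, as linear signal, averaged 603 ± 182 on Bmi1-/- arrays and 1180 ± 538 on WT arrays (SD, n = 4 each). With 4 arrays a genotype, precision is limited throughout. The 8886 probes that were well above background on no array had a median difference of 0.73 (Bmi1-/- minus WT) on this scale, against 0.01 in all 22347 genes tested. On this scale, differences of probes never well above background were thus shifted upward. Whether dim probes that were detected share the shift was not tested, and GATA probes near background are given with that in view.

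Bmi1, the targeted gene, was read first. Its tested probe read -2.92, -1.22, -1.23 and -1.04 in Bmi1-/- replicates 1 to 4, against 1.16, 1.27, 1.20 and 1.25 in WT replicates 1 to 4. The groups were far apart, with Bmi1-/- replicate 1 the lowest array. Bmi1 was 7.07-fold lower in Bmi1-/- samples, a log2 difference of -2.82 ± 0.37 (SE, limma adjusted p = 0.0309 over all genes). The difference kept its sign in all 20 alternatives with a test, between -3.71 and -2.38, but the adjusted p ran from 0.000167 to 0.185, and the call was lost in 11 of them, 7 of which left out 1 array; of the 8 such fits the one without Bmi1-/- replicate 1 kept it. The other Bmi1 probe ran between -8.77 and -4.63 on Bmi1-/- arrays and between -2.01 and -1.27 on WT arrays, also apart, and was well above background on 2 Bmi1-/- arrays. Whether either probe lies inside the deletion is not known here, and a probe outside it would not check the labels. Of the 22347 genes, 11 passed 5% FDR (0.0492%), 9 of them higher (0.0403%) and 2 lower (0.00895%) in Bmi1-/- samples.

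The 10 GATA probes divided sharply by detection. Of them, 4 were well above background on all 8 arrays, which were both Gata2 probes, the Gata3 probe and 1 of the Gata4 probes. A Gata6 probe was so on 7 arrays, and 3 probes on none. Thus 4 of the 6 genes, namely Gata2, Gata3, Gata4 and Gata6, entered the comparison over all genes, for which a probe had to be well above background on at least 4 arrays. None of the 4 was among the genes past 5% FDR (0.0492% of all genes), and 1, Gata3, had an unadjusted p under 0.05, as did 6.35% of all genes (4.20% higher and 2.16% lower in Bmi1-/- samples). Gata3 was also the 1 member whose groups did not overlap, as in 3.08% of all genes (1.82% higher and 1.26% lower). Because the family was chosen on this contrast, nothing is read from these counts. Different probes bind their targets with different strength, so the level of one GATA gene is not set against that of another.

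**Figure D1:**
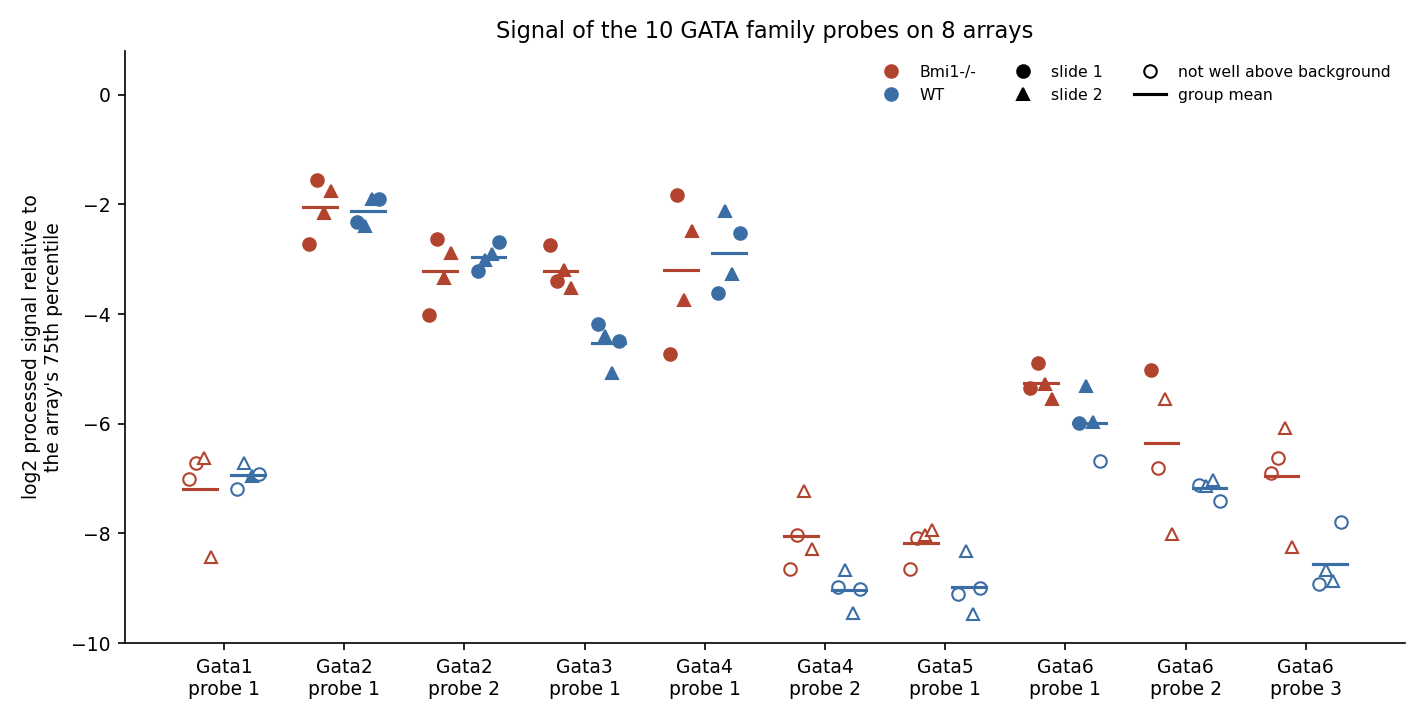
Signal of each GATA probe (vertical axis, log2 of the processed signal, with 0 at the 75th percentile of that array) on 4 Bmi1-/- arrays and 4 WT arrays, with the group mean as a line, the slide by shape, and open symbols where the spot was not well above background. The Gata3 symbols of Bmi1-/- samples lie between -3.52 and -2.74, above all WT symbols, while the Gata2 and Gata4 groups overlap and the probes below -6 are mostly open.

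Gata3, the member known for T cell, hair follicle and mammary epithelium development, was higher in every Bmi1-/- sample than in any WT sample. Its only probe read -2.74, -3.40, -3.20 and -3.52 in Bmi1-/- replicates 1 to 4, against -4.18, -4.41, -5.07 and -4.48 in WT replicates 1 to 4. All 8 values came from spots well above background. The highest was Bmi1-/- replicate 1 and the lowest WT replicate 3, and the groups did not overlap. The means were -3.22 ± 0.34 in Bmi1-/- samples and -4.53 ± 0.38 in WT samples (SD, n = 4 each), a difference of 1.32 ± 0.30 (SE of the limma fit) or 2.49-fold. Before the 75th percentile was subtracted, the linear signals overlapped, with 42.9 to 108 on Bmi1-/- arrays and 29.1 to 66.1 on WT arrays.

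The Gata3 difference was much the same on both slides, which were told apart by their barcodes and scanned separately and each carried 2 arrays of either genotype: 1.26 on slide 1 and 1.38 on slide 2. Leaving out 1 array at a time gave 1.14 to 1.44, with 1.44 without WT replicate 1, the array whose number is in doubt. In the authors' value table, which is normalized between arrays, the Gata3 probe averaged 7.07 in Bmi1-/- samples and 6.14 in WT samples on the log2 scale, a smaller difference of 0.92, and the groups did not overlap there either. That table shifts the never-detected probes by only 0.01.

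**Figure D2:**
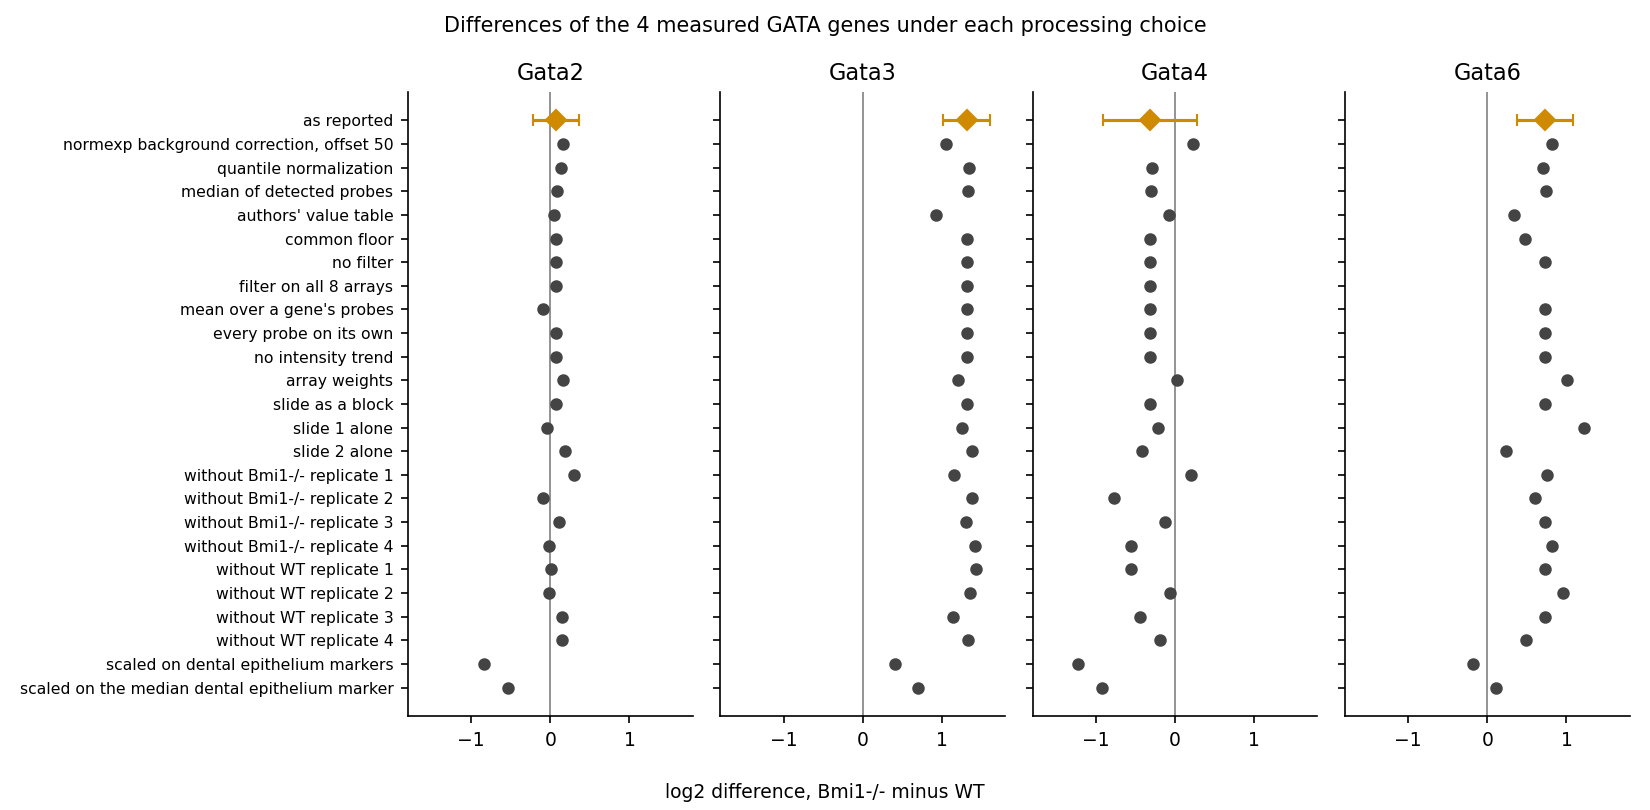
Log2 difference (Bmi1-/- minus WT, horizontal axis) of the 4 GATA genes that entered the comparison, under each processing choice (rows). The diamond is the value as reported with its SE, and each dot is another setting. All Gata3 dots lie right of 0, from 0.41 to 1.44, while those of Gata2, Gata4 and Gata6 fall on both sides of it.

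Markers of the dental epithelium itself were read beside Gata3. The list held 14 genes, of which 13 were found on the array and tested, all of them detected, and 11 of the 13 had a positive difference, with a median of 0.61 against 0.01 for all genes. None passed 5% FDR, which only 0.0492% of all genes did, so a count of 0 says little about this list or those below. At an unadjusted p under 0.05, 9 were higher and 0 lower in Bmi1-/- samples, where 4.20% and 2.16% of all genes were, and 3 had higher groups that did not overlap, where 1.82% of all genes did. Their summed linear signal, relative to the 75th percentile, ran between 590 and 910 on Bmi1-/- arrays and between 317 and 421 on WT arrays, with no overlap.

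Among these markers were genes of the enamel matrix and of the basal keratin network. Ambn, which encodes the enamel protein ameloblastin, averaged 7.14 in Bmi1-/- samples and 6.19 in WT samples (difference 0.95 ± 0.19, SE, limma adjusted p = 0.315). Amelx, which encodes amelogenin, had a difference of 0.94 ± 0.21, and Krt14 and Krt5, the keratin pair of basal epithelial cells, had 0.96 ± 0.26 and 0.81 ± 0.23. Odam and Klk4, genes of maturing ameloblasts named here after their values were seen, had the highest differences of the list, 3.36 ± 1.25 and 2.62 ± 1.09. In bulk samples, fewer cells of a type and less RNA per cell cannot be told apart.

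Gata3 was therefore also set against these markers within each array, a scale added after the data were seen. Relative to the mean of the 13 markers, Gata3 read -7.53, -7.18, -8.02 and -8.14 in Bmi1-/- replicates 1 to 4, against -8.07, -7.63, -8.80 and -8.00 in WT replicates 1 to 4. The groups overlapped on this scale. The difference was 0.41, with means of -7.72 ± 0.44 in Bmi1-/- samples and -8.12 ± 0.49 in WT samples (SD, n = 4 each), while the marker mean itself differed by 0.91.

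The choice of mean or median mattered here. Odam and Klk4, with differences of 3.36 ± 1.25 and 2.62 ± 1.09 (SE), raise the difference of the mean but have little weight in the median. The next highest marker, Krt14, had 0.96. Relative to the median marker, which differed by 0.61, Gata3 read -7.11, -6.70, -7.78 and -7.73 in Bmi1-/- replicates, against -7.86, -8.06, -8.43 and -7.79 in WT replicates. The difference was 0.70, and the groups were apart, but only just, since Bmi1-/- replicate 3 lay barely above WT replicate 4. The part that the share of epithelium had in the Gata3 difference was not tested.

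**Figure D3:**
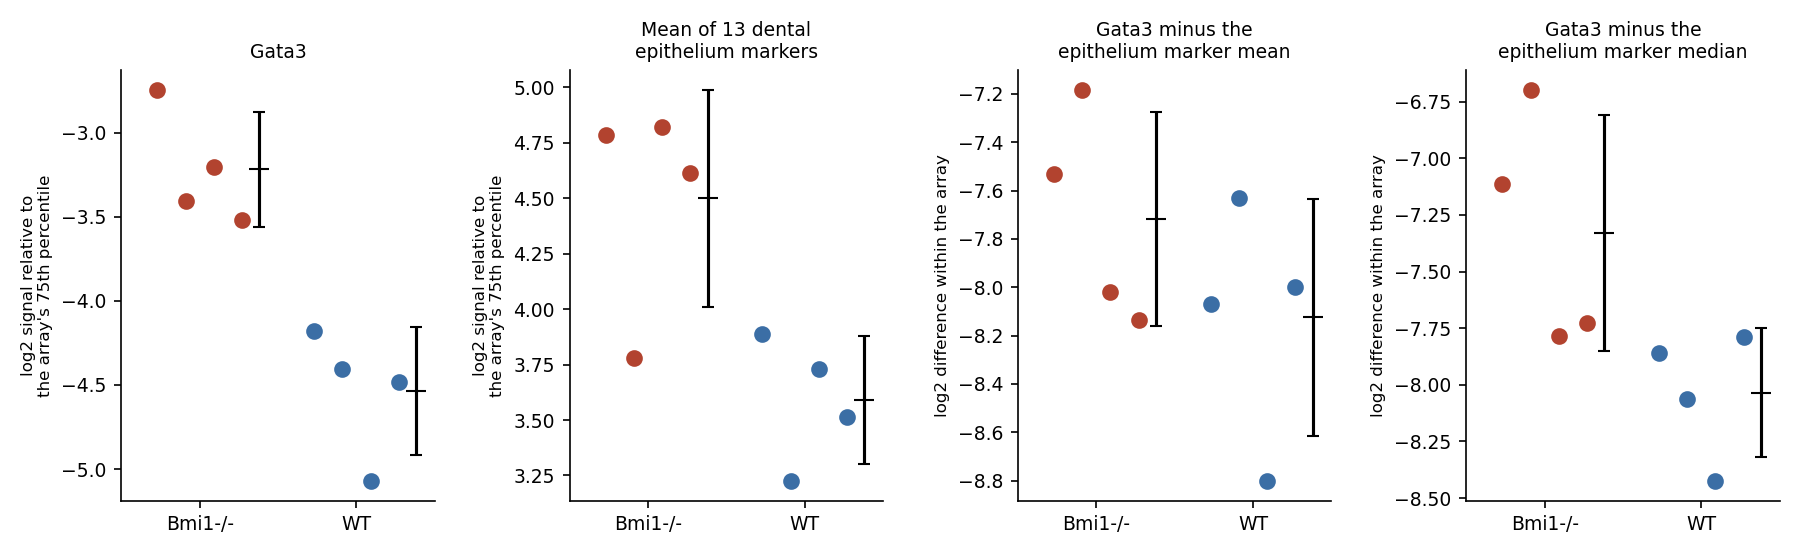
From left to right: Gata3, the mean of 13 dental epithelium markers, Gata3 minus that mean, and Gata3 minus the median marker (vertical axes, log2; each starts near its lowest value). Points are arrays, and bars are the mean and SD of 4 Bmi1-/- and 4 WT arrays. Gata3 and the markers are both higher in Bmi1-/- samples, the groups overlap relative to the mean (difference 0.41), and they are narrowly apart relative to the median (0.70).

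Other transcription factors of epithelia, some of them known to act with Gata3 in the mammary gland, were counted next. Of 15 such factors, 14 were found on the array, Foxa1 was detected on no array, and 13 were tested, 10 with a positive and 3 with a negative difference and a median of 0.30. None passed 5% FDR. Ovol2, a zinc finger repressor that keeps cells epithelial, differed by 0.84 ± 0.32 with groups apart (limma adjusted p = 0.769), and Grhl2, a grainyhead factor of epithelial junctions, by 0.82 ± 0.28. Trp63, the master regulator of stratified epithelia, differed by 0.50 ± 0.23 and is also on the list of epithelium markers.

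Esr1, the estrogen receptor that works with Gata3 in mammary cells, had a negative difference. It was well above background on all 4 WT arrays and on 0 Bmi1-/- arrays. Its mean was at least 1.52-fold lower in Bmi1-/- samples, with measured means of -6.31 in Bmi1-/- samples and -5.48 in WT samples (limma adjusted p = 0.769). The bound sets the WT mean against the lowest signal well above background on each Bmi1-/- array, or the probe's own signal where that was higher.

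Gata3 is also a defining factor of T cells and group 2 innate lymphoid cells (ILC2), so their markers were read beside it. Of 17 markers, 12 were tested, 3 with a positive and 9 with a negative difference, a median of -0.07, and 0 past 5% FDR. Cd2, Il5 and Ccr4 were detected on no array. Their summed signal ran between 5.50 and 8.03 on Bmi1-/- arrays and between 4.71 and 7.99 on WT arrays, so the groups overlapped. This linear sum rests mainly on the brightest markers, Thy1 and Tcf7, and says little about the dimmer ones. Thy1 averaged 2.22 in Bmi1-/- samples and 1.83 in WT samples, and Tcf7 averaged 0.33 and 0.40.

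The subunits of the T cell receptor complex did not share a direction. Cd3g and Cd3d had -1.73 ± 0.70 and -1.16 ± 0.41, while Cd3e and Cd247, named here after their values were seen, had 0.32 and -0.03. Il1rl1, the IL-33 receptor of ILC2 and mast cells, had -0.79 ± 0.26 with groups apart. Il13, a cytokine of ILC2 and T helper cells whose gene Gata3 is known to activate, had 0.76 ± 0.33 (limma adjusted p = 0.775). That value is close to the shift of the never-detected probes, although Il13 was well above background on 4 arrays of each genotype.

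Gata2, known for blood progenitors, mast cells and endothelium, showed no separation of the genotypes. Its first probe read -2.73, -1.56, -2.16 and -1.76 in Bmi1-/- replicates 1 to 4, against -2.32, -2.39, -1.90 and -1.90 in WT replicates 1 to 4. The WT values lay within the range of the Bmi1-/- values, whose lowest was replicate 1 and whose highest was replicate 2. The means were -2.05 ± 0.52 in Bmi1-/- samples and -2.13 ± 0.27 in WT samples (SD, n = 4 each), a difference of 0.08 ± 0.29 (SE).

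The second Gata2 probe placed the arrays in a like order. It read -4.02, -2.63, -3.35 and -2.89 in Bmi1-/- replicates 1 to 4, against -3.22, -3.02, -2.90 and -2.69 in WT replicates 1 to 4. Again Bmi1-/- replicate 1 was the lowest and replicate 2 the highest array, and the groups overlapped. The difference of this probe was -0.26, opposite in sign to that of the first probe, and both were smaller than the spread between the Bmi1-/- arrays. Within slides, the first probe differed by -0.04 on slide 1 and 0.19 on slide 2.

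Cells in which Gata2 is known to be active were read through their markers. All 6 tested mast cell markers, of 10 listed, had negative differences, with a median of -0.95. None passed 5% FDR, and 3 were lower at an unadjusted p under 0.05, as were 2.16% of all genes, of which 51.4% had a positive difference. Mcpt4 and Cma1, proteases of mast cell granules, had -1.73 ± 0.62 and -1.19 ± 0.53, and Cpa3, the granule carboxypeptidase, had -1.81 ± 0.80 (limma adjusted p = 0.779). Their summed signal was 0.206 to 1.57 on Bmi1-/- arrays and 0.823 to 2.02 on WT arrays, and the lowest array was again Bmi1-/- replicate 1. Ms4a2 and Mrgprb1 were detected on no array.

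Endothelial markers were read in the same way. Of 14 genes, 13 were tested, 2 with a positive and 11 with a negative difference, and the median was -0.29 with 0 past 5% FDR. At an unadjusted p under 0.05, 2 were lower and 0 higher in Bmi1-/- samples, where 2.16% and 4.20% of all genes were. Robo4 alone, with -0.37 ± 0.18, had lower groups that did not overlap, where 1.26% of all genes did. The 2 at an unadjusted p under 0.05 were Vwf, the clotting factor of endothelial granules, with -0.92 ± 0.31, and Tek, the angiopoietin receptor, with -1.10 ± 0.37 (limma adjusted p = 0.766 for both). The groups of both overlapped. The summed signal of the list ran between 32.4 and 51.3 on Bmi1-/- arrays and between 40.8 and 65.7 on WT arrays. Bmi1-/- replicate 1 was the lowest here too, and WT replicate 4 the highest. The part of these cells in the Gata2 values was not tested.

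Gata1, the factor of red cells, platelets and mast cells, was at the limit of detection. Its only probe was well above background on 1 WT array, replicate 3, and on 0 Bmi1-/- arrays. It read -7.01, -6.71, -6.63 and -8.43 in Bmi1-/- replicates 1 to 4, against -7.18, -6.71, -6.95 and -6.91 in WT replicates 1 to 4. These values overlap, and no fold is given because the lone detected value lay below the detection limits of the Bmi1-/- arrays.

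Red cell genes were nonetheless abundant in both genotypes. Of 12 erythroid markers, 7 were tested, 4 with a positive and 3 with a negative difference, and 0 passed 5% FDR. The adult globin gene Hbb-bt averaged 5.12 in Bmi1-/- samples and 4.70 in WT samples (difference 0.42 ± 0.39, SE), and Epor, the erythropoietin receptor, differed by -0.31 ± 0.23. Their summed signal was 27.7 to 106 on Bmi1-/- arrays, highest in replicate 2, and 22 to 47.2 on WT arrays. Rhag was among the markers detected on no array.

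Markers of megakaryocytes and eosinophils, the other cells known for Gata1, all had negative differences, 7 of 7 tested, with a median of -0.83. None passed 5% FDR. Ppbp, a platelet chemokine, had -2.42 ± 0.70 with groups apart (limma adjusted p = 0.681). Prg2, the eosinophil major basic protein, was well above background on 4 WT arrays and 0 Bmi1-/- arrays. Its measured means were -6.83 in Bmi1-/- samples and -3.59 in WT samples (limma adjusted p = 0.671). By the bound on means, Prg2 was at least 5.72-fold lower in Bmi1-/- samples. That bound makes no allowance for the spread between arrays, and the measured values of the groups overlapped. The summed signal of the list was 2.04 to 7.97 on Bmi1-/- arrays and 6.84 to 11.9 on WT arrays.

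Gata4, the factor of heart and gut epithelium, varied more between arrays of one genotype than between genotypes. Its first probe read -4.73, -1.82, -3.75 and -2.48 in Bmi1-/- replicates 1 to 4, against -3.61, -2.13, -3.27 and -2.52 in WT replicates 1 to 4. The Bmi1-/- values enclosed all WT values, with replicate 1 the lowest and replicate 2 the highest. The means were -3.20 ± 1.30 in Bmi1-/- samples and -2.88 ± 0.68 in WT samples (SD, n = 4 each), a difference of -0.31 ± 0.60 (SE), which turned to 0.20 without Bmi1-/- replicate 1 and to 0.23 under normexp background correction. The second Gata4 probe was well above background on no array.

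Mesenchymal signal also differed among the arrays. The summed signal of 15 mesenchyme and odontoblast markers was 409, 854, 769 and 625 in Bmi1-/- replicates 1 to 4. It was 426, 579, 413 and 587 in WT replicates 1 to 4. Bmi1-/- replicate 1 was the lowest and replicate 2 the highest array both in this sum and in Gata4. Bmi1-/- replicate 3 had the second highest sum and the second lowest Gata4 value of its genotype. WT replicates 2 and 4 lay above WT replicates 1 and 3 in both. Of the 15, 8 had a positive and 7 a negative difference, 0 passed 5% FDR, and Col1a1 and Col1a2, the chains of type I collagen, had 0.98 ± 0.32 and 0.43 ± 0.18 while Postn, a matrix protein of periodontal tissue, had -0.93 ± 0.37. The part of mesenchyme in the Gata4 values was not tested.

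Gata5, known from the endocardium and the gut, was well above background on no array. Its probe stayed between -8.64 and -7.94 in Bmi1-/- samples and between -9.46 and -8.33 in WT samples. Its difference of 0.80 was close to the 0.73 of all never-detected probes, and in the authors' value table it was -0.04, so no level is given for this gene.

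Gata6, a factor of endoderm and heart that is also active in parts of the skin epithelium, was dim but detected. Its first probe read -5.34, -4.89, -5.27 and -5.55 in Bmi1-/- replicates 1 to 4, against -5.99, -5.31, -5.97 and -6.68 in WT replicates 1 to 4. WT replicate 4 was not well above background, and WT replicate 2 lay within the Bmi1-/- range, so the groups overlapped. The means were -5.26 ± 0.27 in Bmi1-/- samples and -5.99 ± 0.56 in WT samples (SD, n = 4 each), a difference of 0.73 ± 0.35 (SE) or 1.65-fold.

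That difference equals the shift of the never-detected probes, although this probe was well above background on 7 arrays. The difference was uneven between slides, 1.22 on slide 1 and 0.23 on slide 2. It was 0.47 when every value below a common detection floor was raised to it, and 0.34 in the authors' value table, where the groups were apart. Relative to the mean epithelium marker it was -0.18, and relative to the median marker 0.11. The second Gata6 probe was well above background on 1 Bmi1-/- array, replicate 1, and on 0 WT arrays, and no fold was taken because the other 3 Bmi1-/- values were not well above background either. The third was so on no array, and its difference of 1.60 became 0.19 in the authors' value table.

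Partners and targets of Gata4, Gata5 and Gata6 in heart and endoderm were mostly dim. Of 15 genes, 10 were tested, 6 with a positive and 4 with a negative difference, a median of 0.22 and 0 past 5% FDR, and Myh6, Foxa2 and Cdx2 were detected on no array. Sox17, a factor of endoderm and of arterial endothelium, had -0.80 ± 0.27 with groups apart (limma adjusted p = 0.766). Nppb, which encodes a natriuretic peptide of the heart, had 0.74 ± 0.38, close to the shift of the never-detected probes (0.73). It was well above background on 3 arrays of each genotype.

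RNAs of proteins that bind GATA factors formed another list. Of 15 cofactors and complex partners, 14 were found and tested, 5 with a positive and 9 with a negative difference, a median of -0.13 and 0 past 5% FDR. Lyl1, a helix-loop-helix protein that joins GATA complexes in blood, averaged 0.48 in Bmi1-/- samples and 1.38 in WT samples (difference -0.90 ± 0.24, SE, limma adjusted p = 0.675), with groups apart. Lmo4, a LIM-only adaptor of epithelial cells, had 0.45 ± 0.19, and Fli1 and Runx1, blood and endothelial factors found beside Gata1 and Gata2 on DNA, had -0.73 ± 0.41 and 0.59 ± 0.33.

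Genes with a GATA-like zinc finger outside the family were few. All 4 found on the array were tested, 3 with a positive and 1 with a negative difference, and 0 passed 5% FDR or an unadjusted p under 0.05. Trps1, a GATA-type repressor of hair and cartilage development, had -0.46 ± 0.29, and Gatad2b, a subunit of the NuRD chromatin complex, 0.64 ± 0.42. Over all 11 lists, no member passed 5% FDR in either direction. Only 0.0492% of all genes did, so nothing is read from this about the lists.

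**Figure D4:**
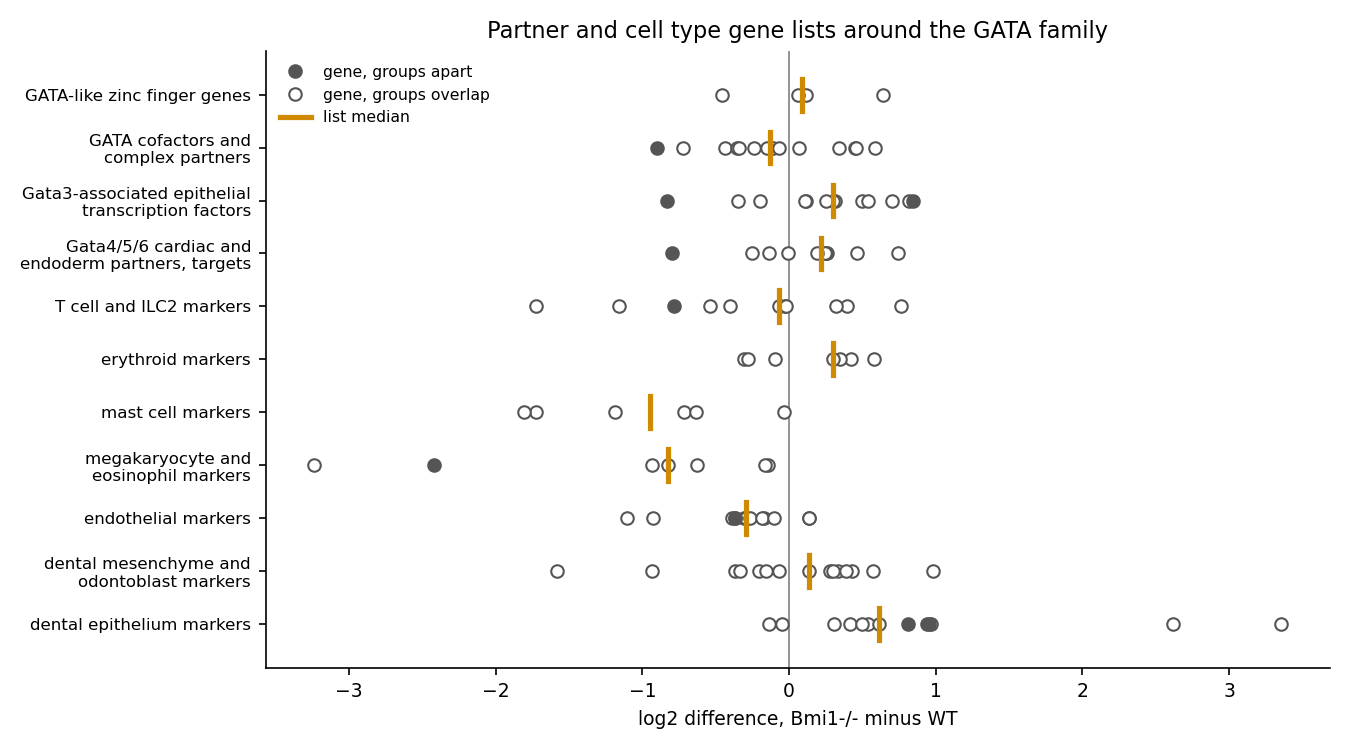
Log2 difference (Bmi1-/- minus WT, horizontal axis) of every tested gene in 11 gene lists, filled where the groups do not overlap, with the list median as a bar. The medians of the mast cell list (-0.95) and of the megakaryocyte and eosinophil list (-0.83) lie furthest left, and that of the dental epithelium markers (0.61) furthest right.

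The slide contrast did not enter the choice of the family and could be tested. With genotype in the model, the difference of slide 2 from slide 1 was 0.08 ± 0.30 for Gata2, -0.35 ± 0.28 for Gata3, 0.26 ± 0.61 for Gata4 and 0.20 ± 0.35 for Gata6 (SE). The limma adjusted p over all genes was 0.923, 0.596, 0.864 and 0.808 in that order of genes. None of the 4 passed 5% FDR, which 1.28% of all genes did, or an unadjusted p under 0.05, which 12.1% did.

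Variation among arrays of one genotype was also independent of the genotype contrast. Each array's deviation from its genotype mean was taken, 7 relations were computed over the 8 arrays, and p-values came from exact permutations within genotypes (two-sided, smallest possible 0.00174). The relations share their arrays and their scaling. Both Gata2 probes deviated together, with Pearson r = 0.96 (exact permutation p = 0.00694, adjusted 0.0486 over 7) and Spearman rho = 0.80 (exact permutation p = 0.0625, adjusted 0.219). Without Bmi1-/- replicates 1 and 2, the arrays farthest from the median, r was 0.85.

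Gata2 and Gata3 deviated in opposite directions. Pearson r was -0.81 (exact permutation p = 0.0156, adjusted 0.0547) and Spearman rho was -0.80 (exact permutation p = 0.0625, adjusted 0.219), and neither passed the adjustment. Without Bmi1-/- replicates 1 and 2, r was -0.74. Gata2 and Gata4 had r = 0.75 (exact permutation p = 0.0972, adjusted 0.227) and rho = 0.30 (exact permutation p = 0.559, adjusted 0.783), but r was 0.23 without the same arrays, so that relation rested on them.

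The other 4 relations were weaker. Gata3 and Gata4 had r = -0.51 (exact permutation p = 0.25, adjusted 0.438) and rho = -0.50 (exact permutation p = 0.295, adjusted 0.689), and r = -0.80 without WT replicate 3 and Bmi1-/- replicate 1. The 3 relations of Gata6 had r between -0.17 and 0.25, with exact permutation p between 0.486 and 0.974, adjusted 0.681 to 0.974, and rho between 0 and 0.40, with exact permutation p between 0.42 and 1, adjusted 0.735 to 1. Without the 2 arrays farthest from the median, r was -0.73 for Gata2 and Gata6, 0.25 for Gata3 and Gata6, and 0.05 for Gata4 and Gata6.

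**Figure D5:**
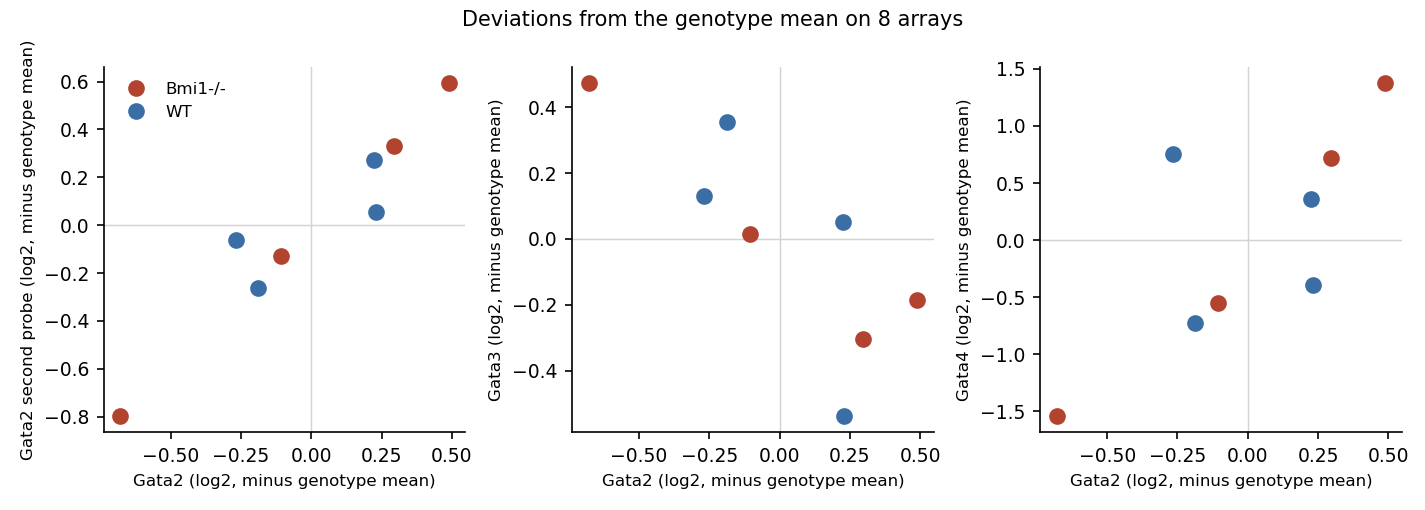
Deviation of each array from its genotype mean (log2, both axes) for the first Gata2 probe against the second Gata2 probe, Gata3 and Gata4. Points are 4 Bmi1-/- arrays and 4 WT arrays. The Gata2 probes deviate together (r = 0.96), Gata3 deviates against Gata2 (r = -0.81), and the relation with Gata4 (r = 0.75) leans on the 2 outermost Bmi1-/- arrays.

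The genes whose deviations followed each member most closely over the 8 arrays are given as a description. They were Acbd7, Gucy1a1 and Mcfd2 for Gata2 (r = 0.99 each), AI661453, Nppc and Tnfrsf19 for Gata3 (0.99, 0.99 and 0.98), Zfp287, Ccdc150 and Tmem26 for Gata4 (0.99, 0.98 and 0.98), and Nme4, Kctd19 and Supt16 for Gata6 (0.96, 0.95 and 0.94). Over 22291 genes the best such r had a median of 0.988, so values this high were common, and the best r of Gata4 (0.986) and of Gata6 (0.956) lay below this median.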

How the data were processed

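RNA of 8 incisor dental epithelium samples was measured on single-colour Agilent arrays. Per the file headers, slides were scanned on a G2505C scanner and quantified under protocol GE1-v5_95_Feb07 in Feature Extraction 10.5.1.1 (grid build mm9), and the deposited processed signal is a linear intensity corrected for background within the array. The deposited 0 or 1 indicators, another kind of value, mark spots well above background. The authors' value table holds log2 values with nearly equal quantiles on all arrays (column medians 6.76 to 6.77), its normalization method not given in the sources used here.

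Signals were taken to log2 minus the array's 75th percentile over 41174 noncontrol probes. No noncontrol spot was saturated. Accessions gave symbols for 24844 probes through the RefSeq table of GRCm38.p6, used for names only except for the promoter windows. A probe entered if well above background on at least 4 arrays (28606 probes), a gene took the brightest of its entering probes by mean, and a probe without a symbol counted as a gene (22347 genes, 13861 with a symbol). Genotypes, and slides with genotype as a term, were compared in R 4.3.3 with limma 3.58.1 (lmFit, eBayes with an intensity trend, two-sided), with p-values adjusted over all genes by Benjamini-Hochberg and called at 5%. The pipeline was tested on simulated data. The members and lists were chosen with earlier results of these data known.

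Genes named are the 6 members, Bmi1, up to 4 genes with the smallest p in each list, and the 3 genes most like each member; Odam, Klk4, Cd3e and Cd247 were named after their values were seen, and some list genes are not reported here. The alternatives are normexp with an offset of 50 on median signals, quantile and median scaling, the authors' value table, a common floor, other filters, probe rules and variance models, the slide as a block or alone, and each array left out. Scaling on epithelium markers and the relations within genotypes were added after seeing the data. GATA protein sequences were not used here.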

Additional observations from a re-analysis of the deposited data

How the results depend on the processing

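None of the 4 measured GATA genes and no gene of the 11 lists passed 5% FDR under any of the 20 alternatives run with a count. As reported, only 0.0492% of all genes passed, so these counts of 0 say little. The number of genes called over the whole array, 11, was 5 under normexp, 7 with the common floor, 22 with array weights and 0 when a probe had to be well above background on all 8 arrays, where limma gave 1266 of 19657 genes at an unadjusted p under 0.05, and between 9 and 14 with 1 array left out. The cause was not tested. The Gata3 difference of 1.32 was positive in all 24 alternatives, but many of these could not have changed its sign. Gata3 has 1 probe, well above background on all 8 arrays, so other filters, probe rules and the common floor left it at 1.32. The fits without an intensity trend and with the slide as a block did so too. Because its groups did not overlap, leaving out 1 array or taking 1 slide could not turn it negative. It was 0.92 in the authors' value table, 0.41 scaled on the mean of the epithelium markers and 0.70 scaled on their median, and between 1.14 and 1.44 with 1 array left out. The Gata2 difference was positive in 17 and negative in 7 alternatives, and that of Gata4 was negative in 21 and positive in 3, among them 0.03 with array weights. Gata6 was positive in 22 of 23, from -0.18 to 1.22, and under the filter on all 8 arrays it was not measured. No paired analysis was possible because the labels give the genotypes no shared replicate numbers. Each slide alone gave values only. Dim probes limit what can be said, since quantile normalization left the never-detected probes shifted by 0.06 and normexp by 0.80.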
